A study of Mus musculus with 12 samples.

Results

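Transcripts of 9 genes that carry the signal of antibody receptors on phagocytes were followed in brain hemispheres of sham-operated mice and of mice after ischemia with and without Laminaria japonica polysaccharide (LJP), a sulfated polysaccharide of brown seaweed. The genes were 4 receptors for the constant part of IgG (Fcgr1, Fcgr2b, Fcgr3 and Fcgr4), the shared signalling chain Fcer1g, the kinases Syk and Btk, the phospholipase Plcg2 and the exchange factor Vav1. They were taken by symbol from the 39756 genes of the count table, and all 9 had enough counts to be among the 17558 genes tested. RNA came from 12 male mice on a C57BL/6J background, 9 to 10 weeks old by the study's methods, with 4 mice in each of 3 groups. By the methods, all groups were gavaged on 1 schedule, which began 14 days before surgery and went on after it. Sham mice had sham surgery and received saline. Vehicle mice were given tMCAO (transient middle cerebral artery occlusion), a filament block of the artery for 45 min followed by reperfusion, and received saline. LJP mice underwent the same occlusion and received LJP dissolved in saline. The study compared several LJP doses and chose the middle one for its later experiments, without naming the dose or the time after surgery where it describes the sequenced mice, and all 12 mice carry the same batch label.

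Fc gamma receptors bind IgG on immune complexes and opsonized material. In mice Fcgr1, Fcgr3 and Fcgr4 encode activating receptors, which signal through the gamma chain encoded by Fcer1g and its immunoreceptor tyrosine-based activation motif (ITAM), while Fcgr2b encodes the inhibitory receptor. SYK docks on the phosphorylated ITAM, BTK activates phospholipase C gamma 2 (Plcg2) to raise calcium, and VAV1 activates Rac for actin-driven phagocytosis. In the brain these genes are expressed mainly by microglia and by macrophages and other leukocytes that enter after injury, and SYK also carries the signal of TYROBP-coupled receptors such as TREM2.

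Total counts per mouse lay between 17960353 and 22216315, with a median of 18815340. Levels are CPM, the counts scaled to a common normalized library size, and the limit that a count of 0 allows, 3 counts, was 0.129 to 0.173 CPM. Neuron markers were present in every mouse, as in brain tissue. The libraries labelled Vehicle 1 and Vehicle 2 stood apart in neutrophil markers, with a summed level of 169 CPM and 41.3 CPM against 0.861 and 5.93 CPM in Vehicle 3 and Vehicle 4. No mouse was left out of the main comparisons, and the values without single mice are given where they differ. A hemisphere with fewer cells of a type and one with less RNA per cell cannot be told apart in bulk RNA.

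On GRCm38, Fcgr2b (Entrez Gene 14130) spans 170960558 to 170976071 of chromosome 1 on the minus strand, Fcgr4 (246256) 171018926 to 171029761 on the plus strand, Fcgr3 (14131) 171051169 to 171065915 on the minus strand and Fcer1g (14127) 171229572 to 171234349 on the minus strand, so that these genes form 1 cluster. Fcgr1 (14129) lies on the minus strand of chromosome 3 from 96282909 to 96293969. Of the other genes, Syk (20963) spans 52582610 to 52648792 of chromosome 13, Plcg2 (234779) spans 117498275 to 117635142 of chromosome 8 and Vav1 (22324) spans 57279100 to 57329236 of chromosome 17, all on the plus strand. Btk (12229) spans 134542334 to 134583628 of chromosome X on the minus strand. Transcripts of Fcgr2b and Fcgr3 share sequence: 9.58% of the 50-base stretches of Fcgr3 occurred in Fcgr2b, and 2.92% of those of Fcgr2b in Fcgr3. For 100-base stretches the shares were 2.54% and 0.753%. With other genes included, 4.38% of the 50-base stretches of Fcgr2b were shared, and the other 7 genes shared 0. Reads that lie wholly within such stretches could have been assigned to another gene or dropped, which makes the values of Fcgr2b and Fcgr3 uncertain to a part that was not measured. The annotated genes inside Fcgr3 and Fcgr4 (a microRNA, tRNAs and Gm26110) had at most 1 count in any mouse.

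Because the genes moved together, their promoters were read from RefSeq (GRCm38.p6, 250 bases before to 50 after each annotated start). All 9 genes had an entry, 11 entries in all. The letters GAGGAA, the purine core that PU.1, the ETS factor of myeloid cells, is known to bind, were searched on both strands and were present for 6 of the 9 genes (Fcgr1, Fcgr3, Fcgr4, Syk, Vav1 and Btk) and in 28.3% of all 32851 promoters of that length. For Syk they were in 1 of 2 listed promoters. The ETS-IRF composite element, in which an ETS core lies beside an IRF site, was present for Fcgr2b alone and in 2.72% of all promoters. This element does not overlap GAGGAA in any window shown. Such a match describes the sequence and is not evidence of binding, and the RefSeq starts used for Fcgr3, Btk and Syk lie inside the gene spans given above. Windows of 100 bases follow, each written 5′ to 3′ on the strand of its gene with the match in capitals: GAGGAA, or TTCCTC where it lies on the opposite strand, and for Fcgr2b the composite element on the opposite strand.
Fcgr1 (chr3:96293972-96294071, minus strand): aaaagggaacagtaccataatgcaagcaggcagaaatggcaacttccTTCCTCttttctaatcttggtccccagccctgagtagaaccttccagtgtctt
Fcgr3 (chr1:171059357-171059456, minus strand): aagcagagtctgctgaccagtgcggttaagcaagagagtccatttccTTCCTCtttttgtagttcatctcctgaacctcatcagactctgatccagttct
Fcgr4 (chr1:171018857-171018956, plus strand): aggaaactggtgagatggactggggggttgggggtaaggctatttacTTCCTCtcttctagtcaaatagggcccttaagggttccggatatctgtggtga
Syk (chr13:52596826-52596925, plus strand): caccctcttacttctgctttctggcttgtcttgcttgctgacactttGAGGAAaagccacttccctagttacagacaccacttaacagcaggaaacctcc
Vav1 (chr17:57279042-57279141, plus strand): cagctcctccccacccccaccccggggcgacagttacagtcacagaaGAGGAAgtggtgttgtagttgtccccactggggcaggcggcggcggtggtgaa
Btk (chrX:134583091-134583190, minus strand): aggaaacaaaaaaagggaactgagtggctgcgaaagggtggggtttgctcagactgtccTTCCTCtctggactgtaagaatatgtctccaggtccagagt
Fcgr2b (chr1:170976052-170976151, minus strand): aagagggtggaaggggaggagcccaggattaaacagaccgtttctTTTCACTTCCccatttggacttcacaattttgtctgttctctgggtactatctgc
The match began 22 bases before the start in Fcgr4, 6 in Fcgr3, 55 in Fcgr1, 9 in Syk and 11 in Vav1, at base 10 after it in Btk, and 35 bases before it in Fcgr2b.

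The first comparison asked how the 9 genes differed between ischemic and sham hemispheres. Vehicle mice had more RNA of all 9 than Sham mice by edgeR's quasi-likelihood test (adjusted p below 0.05 over all genes tested), where 22.7% of all genes tested were higher by the same call. Fcgr4 passed the filter on low counts only through the Vehicle and LJP mice, so its call carries no weight of its own, and the other 8 had log2 fold changes from 2.39 to 3.32. In all 9 the ranges of the Vehicle and Sham mice did not overlap, which held in the higher direction for 20.7% of all genes tested. The exact permutation test gave p = 0.0286 for each gene, the smallest that 4 mice against 4 allow. All 9 calls were kept in each of the 12 fits without 1 mouse. Leaving out Vehicle 2, the highest mouse for all 9 genes, gave the smallest fold change of each.

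Among the activating receptors, Fcgr3, the low-affinity receptor for IgG, had the highest level per length in each group. It lay at 7.79, 6.32, 7.01 and 6.58 CPM in the Sham mice, at 58.9, 76.7, 39.0 and 34.1 CPM in the Vehicle mice and at 29.0, 18.7, 36.0 and 23.4 CPM in the LJP mice. The Sham mice lay close together, while the Vehicle mice split into a higher pair (1 and 2) and a lower pair (3 and 4), and the highest LJP mouse lay above the lowest Vehicle mouse. The Vehicle group was 7.54-fold above Sham (2.91 ± 0.27 on the log2 scale, with the standard error here and in the values below; edgeR adjusted p = 5.89e-05).

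Fcgr1, which encodes the high-affinity IgG receptor, lay at 3.63, 2.34, 2.36 and 3.01 CPM in the Sham mice. Vehicle mice had 19.7, 24.4, 14.5 and 17.0 CPM, and LJP mice 16.8, 5.37, 18.9 and 9.36 CPM. Every Vehicle and every LJP mouse exceeded every Sham mouse, and LJP 1 and LJP 3 lay within the range of the Vehicle mice. The Vehicle group was 6.66-fold above Sham (2.74 ± 0.35 on the log2 scale, edgeR adjusted p = 0.000241).

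Fcgr4, a receptor for IgG2a, IgG2b and IgG2c on monocytes, macrophages and neutrophils, was near the detection limit without ischemia. The Sham mice had 1, 2 or 3 counts each (0.115, 0.0545, 0.164 and 0.0518 CPM). Vehicle mice reached 8.80, 8.94, 3.77 and 3.99 CPM and LJP mice 3.36, 1.12, 3.97 and 1.28 CPM, with mice 1 and 2 highest in the Vehicle group as for Fcgr3. Summed over the group, 546 counts stood against 7, a ratio of 69.3 after scaling to library size (95% exact interval 33.4 to 173, for counting error only). The fitted log2 fold change of 5.97 depends on how few counts the Sham mice had and is given as a description. The LJP group stood at 25.8 times the Sham level by the same ratio (12.3 to 65, from 192 counts).

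Fcgr2b, the inhibitory receptor, had the largest fold change among the genes well above the floor in Sham mice. It lay at 2.19, 2.72, 1.81 and 2.85 CPM in the Sham mice, at 25.5, 38.5, 14.5 and 17.4 CPM in the Vehicle mice and at 12.4, 4.86, 17.9 and 8.36 CPM in the LJP mice. The Vehicle group was 9.99-fold above Sham (3.32 ± 0.41 on the log2 scale, edgeR adjusted p = 0.000202), and 3 of the 4 LJP mice lay below the lowest Vehicle mouse.

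The chain that couples the activating receptors rose with them. Fcer1g had 3.52, 3.71, 2.90 and 3.94 CPM in the Sham mice, 25.1, 42.8, 20.1 and 24.3 CPM in the Vehicle mice and 24.6, 12.0, 28.4 and 11.5 CPM in the LJP mice. The Vehicle group was 7.97-fold above Sham (3.00 ± 0.33, edgeR adjusted p = 0.000125). In the LJP group mice 1 and 3 lay within the range of the Vehicle mice, and mice 2 and 4 were lower.

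**Figure D1:**
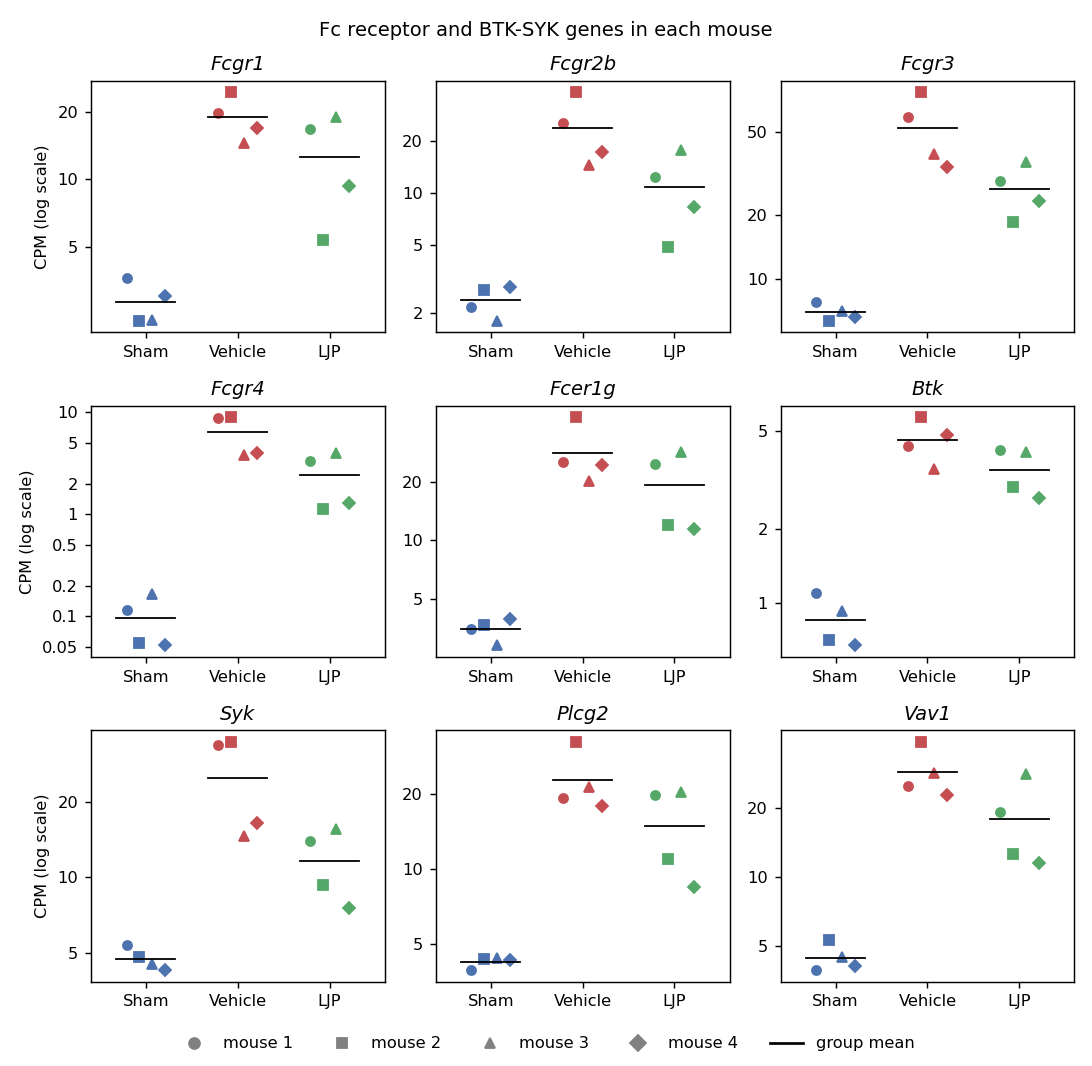
CPM (log axis) of the 9 genes in each mouse, with a panel per gene, a marker shape per mouse number, and a line at the mean of the 4 mice of each group; mouse numbers do not link mice of different groups. All Sham points lie below all Vehicle and LJP points in every panel, and LJP mice 1 and 3 lie above LJP mice 2 and 4 in every panel.

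The kinases and effectors also rose. Syk lay at 5.36, 4.79, 4.49 and 4.25 CPM in the Sham mice, 33.6, 34.7, 14.6 and 16.4 CPM in the Vehicle mice and 13.9, 9.30, 15.6 and 7.52 CPM in the LJP mice. As for Fcgr3 and Fcgr4, Vehicle 1 and 2 stood above Vehicle 3 and 4. The rise over Sham was 5.26-fold (2.39 ± 0.32, edgeR adjusted p = 0.000277).

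Btk, the Tec family kinase below SYK, had few reads, with 62 counts summed over the Sham mice. Its levels were 1.10, 0.708, 0.932 and 0.674 CPM in the Sham mice, 4.36, 5.71, 3.50 and 4.85 CPM in the Vehicle mice and 4.18, 2.97, 4.13 and 2.68 CPM in the LJP mice, a 5.39-fold rise in the Vehicle group (2.43 ± 0.25, edgeR adjusted p = 9.61e-05). Its Vehicle mice did not split into the pairs seen for Syk, since Vehicle 4 lay above Vehicle 1.

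Plcg2 lay between 3.92 and 4.38 CPM in the Sham mice, at 19.3, 32.4, 21.4 and 17.9 CPM in the Vehicle mice and at 19.9, 11.0, 20.4 and 8.47 CPM in the LJP mice, with a 5.36-fold rise in the Vehicle group (2.42 ± 0.29, edgeR adjusted p = 0.000151). Vav1 lay between 3.92 and 5.29 CPM in the Sham mice, at 25.0, 39.1, 28.7 and 23.0 CPM in the Vehicle mice and at 19.3, 12.6, 28.3 and 11.5 CPM in the LJP mice, with a 6.50-fold rise (2.70 ± 0.28, edgeR adjusted p = 9.61e-05). For both genes Vehicle 2 alone stood high in its group, and Vehicle 1, the library with the most neutrophil marker RNA, did not.

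Levels of different genes were compared per length, as CPM per kilobase of the gene length in the count table. In the Sham group Fcer1g stood highest at 5.34 ± 0.673 CPM per kilobase (SD, n = 4), followed by Fcgr3 at 2.38 ± 0.221. Fcgr2b (1.55 ± 0.313), Fcgr1 (1.09 ± 0.238), Vav1 (1.06 ± 0.144) and Plcg2 (0.983 ± 0.0501) followed, each overlapping with the next. Syk (0.466 ± 0.0473), Btk (0.292 ± 0.0679) and Fcgr4 (0.0772 ± 0.0431) stood below them without overlap. In the Vehicle group Fcer1g reached 42.7 ± 15.3 CPM per kilobase and Fcgr3 18.0 ± 6.73, and Fcgr4, at 5.10 ± 2.31, had moved from the last place to a place above Syk (2.45 ± 1.07) and Btk (1.58 ± 0.317), although neighbours from Fcgr3 downwards overlapped between mice. The LJP group kept the same first 7 places, with Fcer1g at 29.1 ± 13.1 and Fcgr3 at 9.22 ± 2.56. Btk (1.19 ± 0.267) and Syk (1.14 ± 0.372) came last there and overlapped. In the length used here, Syk has 10142 bases and Fcer1g 658.

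The make-up of the receptor transcripts was described as each receptor's share of the 4 Fc gamma receptors' summed CPM per kilobase. In Sham mice Fcgr4 made up 1.54 ± 0.95% (SD, n = 4), in Vehicle mice 10.9 ± 1.91% and in LJP mice 7.99 ± 1.94%. The lowest share in any Vehicle or LJP mouse was 5.66% and the highest in any Sham mouse 2.84%. The Sham shares of Fcgr4 rest on 1, 2 or 3 counts per mouse, so these values are a description only. Fcgr3 held the largest mean share in each group, with 46.8 ± 4.19%, 39.3 ± 2.80% and 42.1 ± 7.22%, and the inhibitory Fcgr2b held 30.3 ± 5.84%, 33.2 ± 2.93% and 29.5 ± 3.52%. Shares sum to the whole within a mouse, so a higher share of 1 receptor lowers the others.

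**Figure D2:**
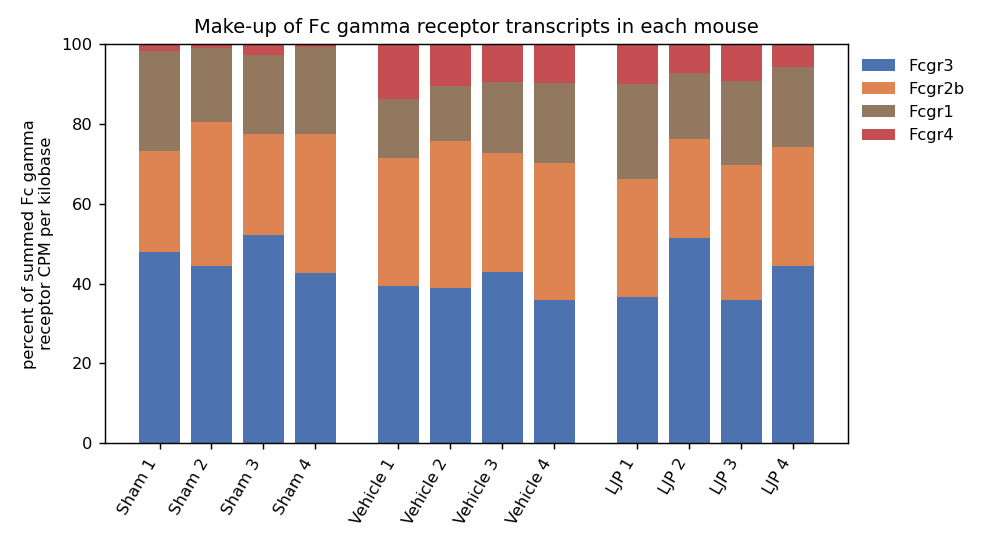
Share of each Fc gamma receptor in the summed CPM per kilobase of the 4 receptors (percent, stacked bars), with 1 bar per mouse. Fcgr4 takes 5.66% to 13.7% of the bar in Vehicle and LJP mice and at most 2.84% in Sham mice, which had 1, 2 or 3 counts each.

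The balance between activating and inhibitory receptors was compared as the log2 ratio of each activating receptor to Fcgr2b, with 0.5 CPM added to each level. None of the 9 tests (3 receptors in 3 comparisons) passed after Benjamini-Hochberg adjustment over the 9. The ratio of Fcgr1 to Fcgr2b was -0.26 ± 0.31 in Vehicle and 0.20 ± 0.15 in LJP mice (SD, n = 4 each), without overlap, a difference of 0.46 ± 0.17 (standard error; two-sided exact permutation p = 0.0286 and adjusted p = 0.257). In Sham mice that ratio was 0.20 ± 0.34. For Fcgr3 the ratio differed by -0.24 ± 0.20 between Vehicle and Sham and by 0.23 ± 0.21 between LJP and Vehicle (exact permutation p = 0.257 and 0.229). The ratio of Fcgr4 to Fcgr2b was higher by 0.43 ± 0.23 in Vehicle than in Sham mice (exact permutation p = 0.143). This value turned with the pseudocount, to 1.78 with 0.1 CPM and to -0.55 with 2 CPM, because the Sham mice had almost no Fcgr4 reads.

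The second comparison asked how the genes differed between the LJP and Vehicle groups, both after tMCAO. Each of the 9 genes had a lower mean after LJP, by log2 fold changes of -0.40 to -1.39, and none passed an adjusted p of 0.05 with edgeR. Of all genes tested, 0.0228% were called lower in this comparison, and 50.2% had a log2 fold change below 0. At an unadjusted p under 0.05, 6 of the 9 were lower in this edgeR fit (Fcgr2b, Fcgr3, Fcgr4, Syk, Plcg2 and Vav1), against 17.4% of all genes tested. DESeq2 called 4 of the 9 lower at its adjusted p (Fcgr2b, Fcgr3, Fcgr4 and Syk), against 9.15% of the genes it tested. The study used DESeq2 with thresholds of an unadjusted p under 0.01 and an absolute log2 fold change over 0.58. Applied here to the edgeR fit, these thresholds took in the same 4 genes, against 5.89% of all genes tested.

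The differences were not of 1 size. Fcgr4 had the largest log2 fold change, -1.39 ± 0.43 (edgeR adjusted p = 0.0766; DESeq2 adjusted p = 0.0289), Fcgr2b of -1.14 ± 0.37 (0.0826; 0.0245), Syk of -1.10 ± 0.30 (0.068; 0.00855) and Fcgr3 of -0.96 ± 0.25 (0.0678; 0.00654). These 4 genes had LJP means of 0.382, 0.453, 0.465 and 0.513 times the Vehicle means by the fitted fold. For Fcgr3, Fcgr4 and Syk a single LJP mouse, LJP 3, lay above the lowest Vehicle mouse, and the exact permutation test gave p = 0.0571 for each. Vav1 (-0.69 ± 0.26, edgeR adjusted p = 0.109), Plcg2 (-0.61 ± 0.26, 0.151), Fcgr1 (-0.59 ± 0.32, 0.228), Fcer1g (-0.55 ± 0.30, 0.227) and Btk (-0.40 ± 0.22, 0.24) passed with neither edgeR nor DESeq2. Whether the difference in 1 gene differed from that in another was tested only for the receptor ratios above.

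Mice within the LJP group fell into the same pairs for all 9 genes, with LJP 1 and LJP 3 above LJP 2 and LJP 4. Fcer1g shows the size of this spread, with 24.6 and 28.4 CPM against 12.0 and 11.5 CPM. The values depended on single mice. Without Vehicle 2 the log2 fold change was -0.27 for Fcer1g, -0.28 for Btk, -0.38 for Plcg2, -0.44 for Fcgr1, -0.51 for Vav1, -0.72 for Fcgr3, -0.81 for Fcgr2b, -0.90 for Syk and -1.18 for Fcgr4. Without LJP 2 Fcgr1 stood at -0.33. In the other direction, edgeR called 4 of the 9 genes lower without Vehicle 3 (Fcgr2b, Fcgr3, Fcgr4 and Syk, against 13.1% of all genes tested) and 3 without Vehicle 4 (Fcgr3, Fcgr4 and Syk, against 8.38%). No single mouse left out turned the sign for any of the 9.

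**Figure D3:**
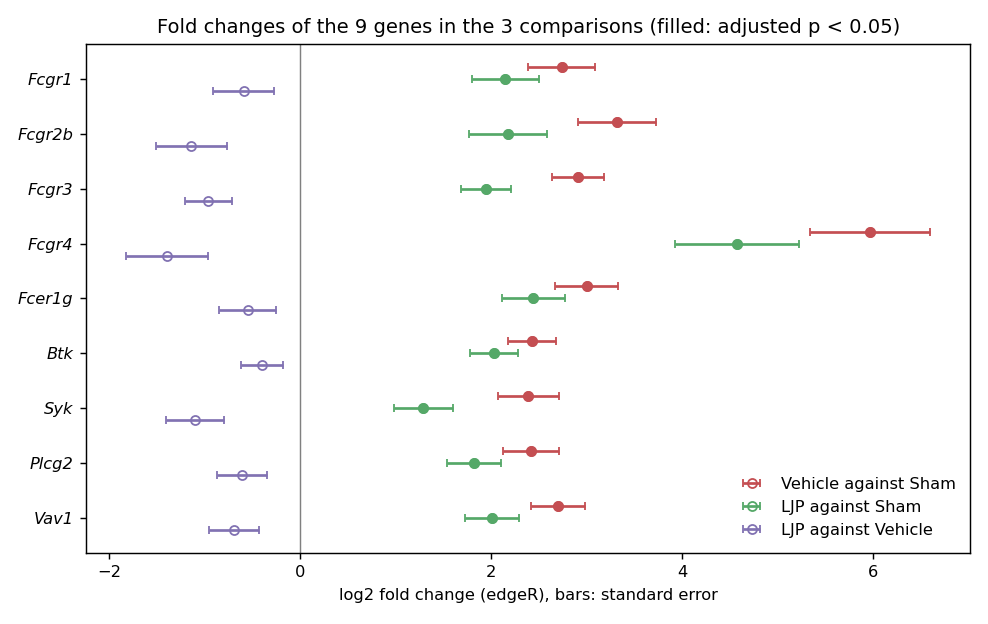
Log2 fold changes of the 9 genes (points) with standard errors (bars) from edgeR in the 3 comparisons, filled where the adjusted p is below 0.05. Points for Vehicle against Sham and LJP against Sham are filled and above 0 for each gene, and points for LJP against Vehicle are open and lie between -0.40 and -1.39.

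The third comparison set the LJP group against the Sham group, and it shares its mice with the other comparisons. All 9 genes were higher in the LJP group (edgeR adjusted p below 0.05, with Fcgr4 again present in the test only through the injured mice), where 3.85% of all genes tested were called higher, and no LJP mouse overlapped with a Sham mouse, which held in the higher direction for 12.9%. Fcer1g was 5.44-fold above Sham (2.44 ± 0.33 on the log2 scale, edgeR adjusted p = 0.00165), Fcgr2b 4.53-fold (0.00844), Fcgr1 4.44-fold (0.00397), Btk 4.09-fold (0.00114), Vav1 4.03-fold (0.00173), Fcgr3 3.87-fold (0.00162) and Plcg2 3.52-fold (0.00327). Syk had the smallest rise, 2.45-fold (1.29 ± 0.31, edgeR adjusted p = 0.0337). Its call was lost in 6 of the 12 fits that left out 1 mouse (each Sham mouse, LJP 1 or LJP 3), with an adjusted p up to 0.118. The other 8 genes kept their calls in all 12 fits.

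Marker lists of cell types were read beside these values. The 12 microglia markers, among them P2ry12, Tmem119 and Sall1, summed to 356 to 362 CPM in the Sham mice, 482, 947, 1050 and 1100 CPM in the Vehicle mice and 1150, 624, 1150 and 640 CPM in the LJP mice. The lowest Vehicle value was that of Vehicle 1, and LJP 1 and LJP 3, the mice with more Fc receptor RNA, had the higher sums in their group. Of these 12 markers 7 rose in the Vehicle and 7 in the LJP group against Sham, and between LJP and Vehicle 0 passed, with a median log2 fold change of 0.04.

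The 12 monocyte or macrophage markers summed to 13.3 to 16.7 CPM in the Sham mice, 202, 338, 51.0 and 93.5 CPM in the Vehicle mice and 69.1, 23.5, 79.6 and 25.3 CPM in the LJP mice. LJP 1 and LJP 3 again lay above LJP 2 and LJP 4, and Vehicle 2 was highest as it was for the 9 genes. Gpnmb alone ranged from 6.13 to 49.0 CPM among the LJP mice, so the sums there depend strongly on 1 gene. All 9 tested markers of this list rose in the Vehicle group against Sham (median log2 fold change 3.55), where 22.7% of all genes tested did. Ccr2 and Ms4a7 among them had at most 6 and 7 counts in any Sham mouse, so their calls carry no weight of their own. In the LJP group 1 of the 9, Gpnmb, was called higher against Sham (median 1.11), where 3.85% of all genes tested were. Between LJP and Vehicle all 9 lay below 0 with a median of -1.66, Gpnmb only at -0.0, and none passed with edgeR. Neutrophil markers summed to at most 1.28 CPM in Sham and LJP mice and to 169 CPM in Vehicle 1, mostly S100a8 and S100a9, which reached 52.6 and 62.1 CPM, while Ly6g had at most 4 counts in any mouse.

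Markers of cells that carry other Fc receptor pathways were low. B cell markers summed to 4.69 to 8.16 CPM over all mice, most of it Fcer2a, which lay between 3.92 and 6.85 CPM, while Ms4a1 had at most 1 count in any mouse. Mast cell markers summed to at most 0.323 CPM, with Cpa3 at 1 count or fewer and the IgE receptor chain Fcer1a at 0 in all 12 mice, and T or NK cell markers summed to at most 2.02 CPM. The 8 neuron markers summed to 6580, 5930, 6310 and 6240 CPM in the Sham mice, 5040, 3770, 5870 and 5660 CPM in the Vehicle mice and 5740, 6330, 5680 and 6720 CPM in the LJP mice, with the lowest sum in Vehicle 2, the mouse highest for all 9 genes. Against Sham 2 of the 8 fell in the Vehicle group (median -0.42), where 17.3% of all genes tested were called lower, and between LJP and Vehicle none passed with edgeR and all 8 lay above 0 (median 0.26). The part of each cell type in the changes of the 9 genes was not tested.

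**Figure D4:**
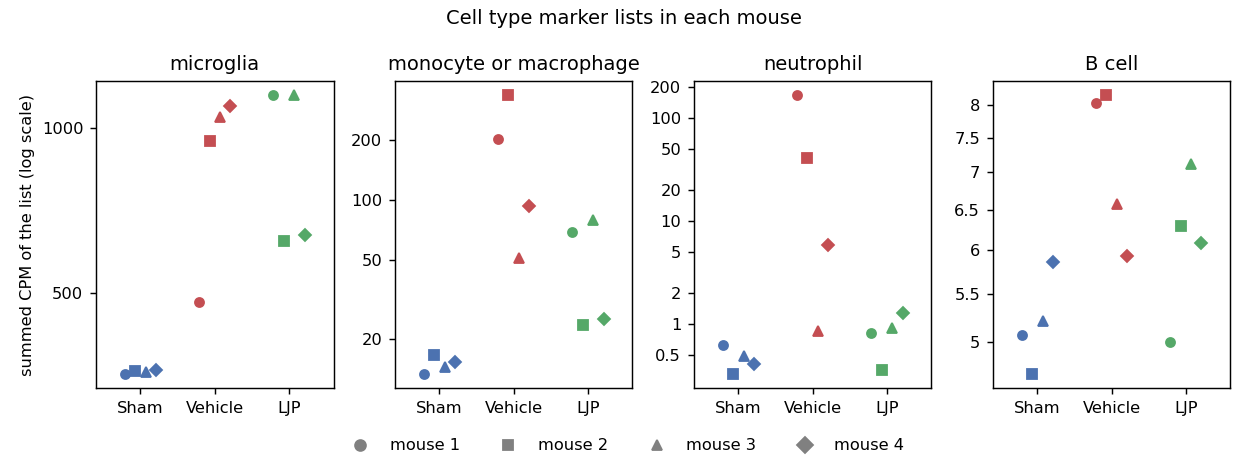
Summed CPM (log axes) of 4 cell type marker lists in each mouse, with the same marker shape for the same mouse number within each group. Macrophage sums are 51.0 to 338 in Vehicle and 23.5 to 79.6 in LJP mice, microglia sums of both groups overlap, and neutrophil sums are high in Vehicle 1 and Vehicle 2.

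Around these 9 genes, 156 genes in 9 lists by role were examined, of which 124 had enough counts. Against Sham, 72 rose and 10 fell in the Vehicle group (edgeR adjusted p below 0.05), where 22.7% and 17.3% of all genes tested did, with a median log2 fold change of 0.97 where all genes tested had 0.00. Between LJP and Vehicle none passed, 88 of the 124 lay below 0 and the median was -0.24. In that comparison DESeq2 called 3 higher and 30 lower of the 130 list genes it gave an adjusted p, against 3.69% and 9.15% of all genes it tested. In the LJP group 36 rose and 1 fell against Sham, where 3.85% and 0.9% of all genes tested did, with a median of 0.36. List genes with few counts in Sham mice, among them Fcrl1, Fgr and Lilrb4a, were tested only through the injured mice. Their calls carry no weight of their own.

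Of the other Fc receptors and IgG handling genes, 4 of 5 tested rose in the Vehicle group. Trim21, the cytosolic IgG receptor, rose by 1.65 ± 0.31 on the log2 scale (edgeR adjusted p = 0.00202) and Fcgrt, the neonatal receptor that recycles IgG, by 0.85 ± 0.22 (0.00978). Fcrls, a microglial Fc receptor-like gene that also stands in the microglia marker list, rose by 2.49 ± 0.50 (edgeR adjusted p = 0.00259). Fcrl1 had 1 to 8 counts in the Sham mice and passed the filter only through the Vehicle and LJP mice. Its log2 fold change of 2.20 ± 0.56 (edgeR adjusted p = 0.00908) is given as a description. Unlike the 9 genes, Fcrls and Fcrl1 did not lie below 0 between LJP and Vehicle, with log2 fold changes of 0.05 ± 0.46 and 0.17 ± 0.47. Fcgrt differed by -0.70 ± 0.22 (edgeR adjusted p = 0.0792; DESeq2 adjusted p = 0.0301) and Trim21 by -0.59 ± 0.30 (0.198; 0.181). Of 12 immunoglobulin and J chain genes, among them those of IgG, 2 had enough counts to be tested. These were Ighm, of IgM (23.3 ± 2.48 CPM in Sham mice, SD, n = 4), and Ighg2c, of IgG2c (2.76 ± 0.885). Neither passed with edgeR in any comparison. Ighg1 and Ighg2b had at most 1 count in any Sham or LJP mouse and reached 20 and 74 counts in Vehicle 2. Vehicle 2 also had the most Igha, Igkc and Ighg3 among the Vehicle mice, with 119, 119 and 43 counts against at most 10, 17 and 3 in the others.

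Of the other ITAM receptors and adaptors, 8 of 10 tested rose. Tyrobp, the adaptor most similar in role to Fcer1g, rose by 2.81 ± 0.29 (edgeR adjusted p = 9.61e-05) from 5.69 ± 0.581 to 39.8 ± 8.98 CPM (SD, n = 4) and stood at 27.3 ± 12.2 CPM in the LJP group. Trem2, a lipid-sensing partner of TYROBP, rose by 2.08 ± 0.32 and differed by -0.15 ± 0.30 between LJP and Vehicle (edgeR adjusted p = 0.00062 and 0.751). Clec5a rose by 1.87 ± 0.34 (0.00176). Oscar, a collagen receptor that signals through the Fcer1g chain, had log2 fold changes of -0.56 ± 0.29 and 0.73 ± 0.29, opposite to the 9 genes, and passed in neither (edgeR adjusted p = 0.137 and 0.123).

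Of the Src and Tec family kinases, 6 of 12 rose. Lyn, which phosphorylates the ITAM in myeloid cells, rose by 2.48 ± 0.31 (edgeR adjusted p = 0.000217), and Csk, which restrains Src kinases, by 0.60 ± 0.11 (0.00139). Fgr, a Src kinase abundant in monocytes and neutrophils, lay between 0 and 5 counts in the Sham mice, 1.08 to 16.1 CPM in the Vehicle mice and 0.511 to 1.79 CPM in the LJP mice. Among the adaptors beside SYK and BTK, 10 of 17 rose, among them those with the smallest p-values, Ccdc88b (1.51 ± 0.15), Sh3bp2 (2.02 ± 0.20) and Fyb (2.35 ± 0.24). Blnk, the adaptor that brings BTK to PLCG2, rose by 2.13 ± 0.26 and differed by -0.97 ± 0.25 between LJP and Vehicle (edgeR adjusted p = 0.0678; DESeq2 adjusted p = 0.00652).

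In the calcium, PKC and CARD9 branch 8 of 21 genes were called higher and 5 lower, with a median of -0.01, where 22.7% and 17.3% of all genes tested were called. Card9 rose by 1.65 ± 0.25 and the calcium channel gene Orai1 by 1.34 ± 0.20 (edgeR adjusted p = 0.000586 and 0.000609), and Itpr3, a calcium release channel of the endoplasmic reticulum, by 1.90 ± 0.37. Between LJP and Vehicle Itpr3 differed by -1.43 ± 0.36 (edgeR adjusted p = 0.0678; DESeq2 adjusted p = 0.00379). Rasgrp2, a calcium-regulated activator of Rap1, fell by 1.95 on the log2 scale (standard error 0.24, edgeR adjusted p = 0.000209), from 91.1 ± 7.81 to 23.6 ± 9.02 CPM (SD, n = 4). It stood at 42.7 ± 10.7 CPM in the LJP group and was the gene called lower there against Sham (-1.09 ± 0.24, edgeR adjusted p = 0.0197). In the PI3K branch 6 of 13 rose and 2 fell. Pik3ap1, the B cell adaptor for PI3K, rose by 2.51 ± 0.33, Pik3r5 by 2.18 ± 0.33 and Pik3cg by 1.78 ± 0.26, and between LJP and Vehicle Pik3cg differed by -0.10 ± 0.25 and Pik3r5 by -0.92 ± 0.31 (edgeR adjusted p = 0.801 and 0.09; DESeq2 adjusted p = 0.82 and 0.0355).

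The actin branch below VAV1 had 10 genes higher and 2 lower of 15. Rac2, the Rac of blood cells, rose by 3.59 ± 0.37 and Dock2, its exchange factor, by 2.79 ± 0.28 (edgeR adjusted p = 9.61e-05 and 8.96e-05), while Coro1a, which neurons also express, rose by 0.55 ± 0.06. Rac2 and Arhgdib differed by -1.08 ± 0.32 and -1.14 ± 0.30 between LJP and Vehicle (DESeq2 adjusted p = 0.0184 and 0.00606; edgeR adjusted p = 0.0729 and 0.0678). The inhibitory receptors and phosphatases rose too, 20 of 29 with 1 lower. Lilrb4a, an inhibitory receptor of myeloid cells, went from 1 to 4 counts in each Sham mouse to 11.1 to 35.1 CPM in the Vehicle mice and stood at 3.85 to 16.4 CPM in the LJP mice. Inpp5d, the SHIP1 phosphatase that FCGR2B recruits, rose by 1.99 ± 0.20 and Ptpn6, the SHP-1 phosphatase, by 2.75 ± 0.30 (edgeR adjusted p = 8.96e-05 and 0.000113). Pecam1, an inhibitory receptor also found on endothelium and platelets, ranged from 32.1 to 339 CPM among the Vehicle mice and from 22.0 to 33.7 CPM in the LJP mice. It differed by -2.56 ± 0.55 between LJP and Vehicle (edgeR adjusted p = 0.0678, DESeq2 adjusted p = 0.00203).

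**Figure D5:**
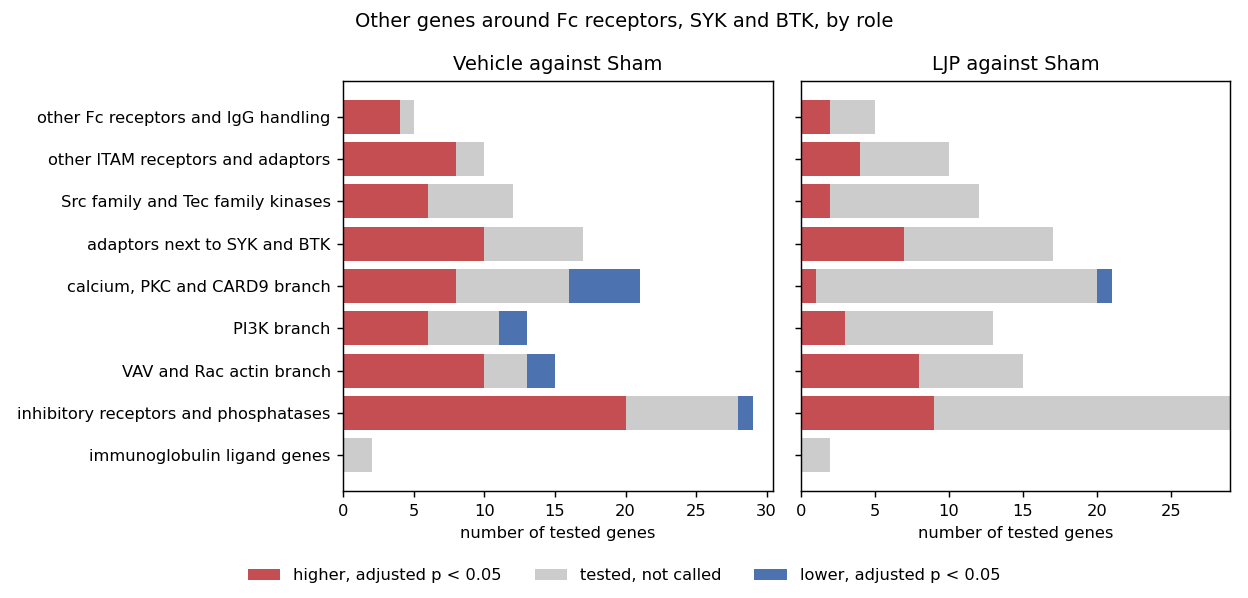
Number of tested genes in 9 lists by role that were called higher, called lower or not called (edgeR adjusted p below 0.05), for Vehicle against Sham and LJP against Sham. Higher calls make up most of the inhibitory list in the Vehicle group (20 of 29) and 9 of 29 in the LJP group, and 5 of the 10 lower calls in the Vehicle group stand in the calcium branch.

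The genes most like each of the 9 in their pattern over the 12 mice were found by the root mean square difference of centred log2 CPM among 17557 other genes, as a description of these mice that includes the differences between groups. The nearest gene was Klhl6 for Fcgr3 (0.169), Pycard, the inflammasome adaptor, for Fcgr1 (0.237), Ctsc, a lysosomal protease, for Fcgr2b (0.232) and C5ar1, the complement C5a receptor, for Fcgr4 (0.32). For Fcer1g the 3 nearest were Lpxn (0.188), Tyrobp (0.203) and the complement gene C1qb (0.203). Itgam, which encodes CD11b, was nearest to Syk (0.188), Parvg to Btk (0.228), Ctsz, another lysosomal protease, to Plcg2 (0.167) and Lat2, an adaptor of myeloid and B cells, to Vav1 (0.176). Fcgr4 had the most distant neighbour of the 9.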

How the data were processed

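Poly(A) RNA of brain hemispheres from 12 mice (the labels call them ischemic, also for Sham mice) was sequenced as paired-end reads. The authors deposited raw counts per gene and mouse, without normalization. The submitters' processing notes name featureCounts, DESeq2 and the builds GRCm39 and mm10; the gene positions of the deposited counts match GRCm38, the assembly called mm10. The aligner, strand setting and handling of shared reads are not given in the sources used here. Groups and replicate numbers came from the sample titles. The labels name replicates without saying more, so p-values measure the spread between these samples.

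Counts were fitted in R 4.3.3 with edgeR 4.0.16 (filterByExpr, TMM, quasi-likelihood test, 1 coefficient per group, all 12 mice), with Benjamini-Hochberg adjustment of p over 17558 genes. Log2 CPM for likeness of pattern used a prior count of 2. Exact permutation tests were two-sided over the 70 splits of 8 mice (scipy 1.17.1). Alternatives were DESeq2 1.42.0, RLE and library-size scaling, no filter, fits of 2 groups, a replicate block, the study's thresholds, other pseudocounts and leaving out each mouse. Plots used matplotlib 3.10.9. Mice of a group differed by more than sampling noise (chi-square per degree of freedom at least 2.484). The spread was unequal between groups. Pairs of mice had 2.484 to 6.19 in the Sham group, 5.853 to 15.18 in the LJP group and 4.19 (Vehicle 3 and 4) to 110.8 (Vehicle 2 and 3) in the Vehicle group.

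The 9 genes and all lists were chosen with earlier results of these data known. Named list genes were the 3 with the smallest p in Vehicle against Sham and the 1 with the smallest in LJP against Vehicle per list, and, as values only, immunoglobulin and marker genes named after their values were seen. Some genes that the rule names are not reported here. On simulated counts of 17328 genes for Vehicle against Sham, the test recovered 57 of 100 genes changed by a log2 of 1 and 93 of 100 changed by a log2 of 2, with 6 false calls. Total counts of 17960353 to 22216315 per mouse set the floor of 3 counts, and intervals cover counting error only. Protein sequences were not used here.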

Additional observations from a re-analysis of the deposited data

How the results depend on the processing

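All 9 calls of Vehicle against Sham, among them that of Fcgr4, which is a description only, were kept under every alternative run, and no fold change of the 9 genes turned sign. At the study's thresholds 3807 genes differed there in place of 7014, and 5285 to 8200 did when single mice were left out. Between LJP and Vehicle, the 4 genes called by edgeR among all genes became 593 with no filter on low counts, 2 in the fit of the 2 groups only, 2 with the replicate block, 2298 with DESeq2, 1223 at the study's thresholds and 3 to 3857 when single mice were left out. In place of 0, 2 of the 9 genes were called with no filter (Fcgr3, edgeR adjusted p = 0.0438, and Syk, 0.0495), 4 with DESeq2, 4 at the study's thresholds and 0 to 4 when single mice were left out, and of the list genes 10, 33, 19 and 0 to 48. Why these counts differ was not tested. Other settings weakened the 4 genes that DESeq2 called. In the fit of the 2 groups only, the edgeR adjusted p was 0.208 for Fcgr3, Syk and Fcgr4 and 0.214 for Fcgr2b. With the replicate block it was 0.14 for Fcgr3, Syk and Fcgr4 and 0.16 for Fcgr2b. Against Sham, the 834 genes called in the LJP group became 4043 in the fit of the 2 groups only, 464 with the replicate block, 1458 with DESeq2 and 393 to 2357 when single mice were left out; the list genes became 63 in the fit of the 2 groups only and 29 to 53 when single mice were left out, and the 9 called genes 8 or 9.

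With 2 CPM as pseudocount, 6 log2 ratios to Fcgr2b turned sign: Fcgr3 (0.05) and Fcgr4 (-0.55) for Vehicle against Sham, Fcgr4 (0.12) for LJP against Vehicle, and Fcgr1 (0.04), Fcgr3 (0.21) and Fcgr4 (-0.43) for LJP against Sham. None had passed. Same-numbered mice did not deviate together (correlations -0.322 to 0.114), so the numbers were not taken as pairs, and the replicate block left 9, 0 and 9 of the 9 genes called in the 3 comparisons.

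Depth limits Fcgr4 in Sham mice. The cost of 4 mice per group is that exact tests cannot go below 0.0286. For 36 groups of 4 values, no mouse lay beyond Dixon's limit for 4 values.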
